A study of Mus musculus with 4 samples.

Results

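The COUP-TF genes Nr2f1, Nr2f2 and Nr2f6 were followed through the cells of the neonatal mouse oviduct and uterus. The members were taken by gene symbol, and all 3 were found among the 31053 genes listed in the count matrices. They were chosen by their measured levels, with the organ difference of Nr2f1 in view, so the oviduct and uterus values of the 3 genes are given as descriptions, without a test. Tests are given for differences between cell classes and between subsets of a class, which the choice of genes did not use. Listed genes other than the members are also tested between the organs. Those lists were chosen with earlier results of these data known, so counts per list are descriptions.

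The samples were wild type, untreated CD1 (ICR) mouse neonates at postnatal day 3. The organs were taken apart with 3 enzymes (Collagenase B, Dispase II and DNase I), and the cells were run on the 10x Genomics Chromium 3' v3.1 chemistry, which counts RNA molecules by unique molecular identifiers (UMIs). Each organ gave 2 libraries, and each library was a pool of 3 or 4 neonates. Both organs of a replicate number came from the same neonates, so the spread between replicates is the spread between 2 pools. The labels describe the cells as mesenchymal and epithelial, without a sort, and blood vessel, mesothelial and myeloid cells were present as well.

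COUP-TFs are nuclear receptors, a family of transcription factors with a zinc finger domain that binds DNA and a domain that in other members binds a hormone or lipid. No physiological ligand is settled for the COUP-TFs, and they are therefore called orphan receptors. They bind repeats of the letters AGGTCA, often as repressors, alone or paired with the retinoid X receptor. Nr2f2 (COUP-TFII) is known from the mesenchyme of many organs, from the uterine stroma, where it acts downstream of Indian hedgehog, and from venous endothelium, where it holds back Notch signalling. Nr2f1 (COUP-TFI) is best known from the developing nervous system. Nr2f6 (EAR2) is the more distant relative and has been studied mostly in lymphocytes and cancer.

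Per GENCODE release M21 (build GRCm38), Nr2f1 (ENSMUSG00000069171) lies on chr13:78188973-78199757, Nr2f2 (ENSMUSG00000030551) on chr7:70351944-70366735 and Nr2f6 (ENSMUSG00000002393) on chr8:71374123-71381960, all on the minus strand. Because the members are relatives, their transcripts were compared for stretches in which a read could not be told apart. The longest exact run shared by the Nr2f1 and Nr2f2 transcripts was 59 bases, and the longest run either shared with Nr2f6 was 23 bases. Both runs lay in the coding sequence. In the last 500 bases of the transcripts, the part that a 3' library mostly reads, the longest shared runs were 11 bases between Nr2f1 and Nr2f2, 11 between Nr2f1 and Nr2f6 and 8 between Nr2f2 and Nr2f6. A coding stretch that starts with the 59-base run of Nr2f1 and Nr2f2 encodes part of the DNA-binding domain. It is shown for the 3 members as 150 bases (50 codons) from the GENCODE transcripts, 5′ to 3′, in frame, with capitals marking bases that differ from Nr2f1:
Nr2f1: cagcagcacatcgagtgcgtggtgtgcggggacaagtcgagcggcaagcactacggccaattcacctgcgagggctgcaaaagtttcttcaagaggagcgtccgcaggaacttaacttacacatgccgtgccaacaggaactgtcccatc
Nr2f2: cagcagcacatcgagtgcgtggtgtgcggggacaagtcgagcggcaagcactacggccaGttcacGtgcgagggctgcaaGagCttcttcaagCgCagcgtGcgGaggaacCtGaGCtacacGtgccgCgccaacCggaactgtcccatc
Nr2f6: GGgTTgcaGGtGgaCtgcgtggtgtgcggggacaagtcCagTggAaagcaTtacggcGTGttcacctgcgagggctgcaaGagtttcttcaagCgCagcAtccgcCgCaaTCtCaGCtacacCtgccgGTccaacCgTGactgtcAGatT
Nr2f2 differed from Nr2f1 at 15 of these bases (90% identity), 11 of them at the third base of a codon. Nr2f6 differed at 35 bases (76.67% identity), 19 of them at the third base.

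In the RefSeq table of windows around gene starts (GRCm38.p6, 250 bases before to 50 after the start), Nr2f1 has 2 start sites and the other members 1 each. The letters AGGTCA, searched on both strands, were in none of these 4 windows, and 16.26% of all 32851 windows of that length held them. The GC content of the windows was 68% and 43% for Nr2f1, 49.67% for Nr2f2 and 82.67% for Nr2f6, against a median of 52.67% over all windows.

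Cells were assigned to a class when the marker genes of 1 cell type led those of all others, and UMIs were summed per class and library. Levels are given as CPM, the UMIs of the gene scaled to 1000000 UMIs of that sum. The libraries held 61117726 to 114419939 UMIs in 5716 to 7808 called barcodes. The filter on detected genes and mitochondrial UMIs took out 11.4% of oviduct 1, 13.8% of oviduct 2, 29.0% of uterus 1 and 28.7% of uterus 2. Removal of likely doublets took 132 to 383 more per library and left 20375 cells. Any 2 libraries shared 8 to 15 cell barcodes. Of 20375 cells, 4060 had no class, and 7 classes with at least 20 cells in each library were compared. Cells without a class made up 14.1% of oviduct 1, 15.9% of oviduct 2, 25.2% of uterus 1 and 29.0% of uterus 2. The class sums thus leave out a larger share of the uterine cells. Red blood cells (29 to 267 per library) were set aside and not compared. The defining markers of the 7 classes stood high in their own class. Epcam was at 924 CPM in epithelium, Pdgfra at 258 in mesenchyme, Myh11 at 646 in smooth muscle and Rgs5 at 1489 in pericytes. Upk3b was at 999.8 in mesothelium, Pecam1 at 713 in blood endothelium and Tyrobp at 1887 in myeloid cells. All listed markers were highest in their own class except Krt7, Col3a1 and Fbn1, which were higher in mesothelium, and Des, which was higher in pericytes. Other classes also carried mesenchymal markers, with a median mesenchyme score of 0.4643 in mesothelium, 0.412 in smooth muscle and 0.2658 in pericytes, against 0.5938 in mesenchyme itself, on a scale from 0 to 1.

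Nr2f1 was far higher in the oviduct than in the uterus in the cell types that make up most of both organs. In mesenchyme it stood at 104 and 102 CPM in oviduct 1 and 2 and at 10.0 and 11.6 CPM in uterus 1 and 2. The means were 103 ± 1.21 and 10.8 ± 1.09 CPM (SD, n = 2 each), 9.57-fold apart. Both oviduct pools lay far above both uterine pools, and the spread within an organ was about 1 CPM.

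The smooth muscle cells of the oviduct held 118 and 129 CPM of Nr2f1, and those of the uterus 1.64 and 3.86 CPM. The means of 124 ± 7.83 and 2.75 ± 1.57 CPM (SD, n = 2) were 45.1-fold apart, a log2 ratio of 5.495 that became 6.24 without uterus replicate 2. The uterine values rest on 7 and 20 UMIs, so counting error alone spans 0.659 to 3.38 CPM in uterus 1 and 2.36 to 5.96 CPM in uterus 2 (exact 95% Poisson intervals, which cover counting error only). Uterine smooth muscle was thus near the lower limit at which Nr2f1 can be measured here.

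In epithelium, Nr2f1 was at 58.9 and 75.5 CPM in the oviduct libraries and at 0.684 and 1.84 CPM in the uterine ones. The epithelial means were 67.2 ± 11.7 and 1.26 ± 0.819 CPM (SD, n = 2), 53.2-fold apart. The 2 uterine epithelial sums held 1 and 4 UMIs of Nr2f1, and the ratio of the summed counts was 49.5 (counting interval 21.1 to 153). Uterine epithelial cells were fewer (76 and 109, against 168 and 308 in the oviduct) and shallower, with a median of 3804.5 and 1666 UMIs per cell against 11736 and 6710.5. Among epithelial cells with at least 5000 UMIs, which held at least 93.7% of the UMIs of every epithelial sum, the levels were 59.0, 77.1, 0.729 and 1.97 CPM in oviduct 1, oviduct 2, uterus 1 and uterus 2.

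Pericytes, the contractile cells on small vessels, held the most Nr2f1 in either organ, at 169.9 and 211 CPM in the oviduct and 32.0 and 32.5 CPM in the uterus. The organ ratio of the means was 5.91, with means of 190.5 ± 29.1 and 32.2 ± 0.327 CPM (SD, n = 2). Pericytes therefore had the lowest organ ratio among the classes with more than 10 uterine UMIs and the highest uterine level.

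The other 3 classes held little Nr2f1. Mesothelium, the outer lining of the organs, had 32.3 and 25.3 CPM in the oviduct and 2.10 and 1.48 CPM in the uterus. The uterine mesothelial values rest on 2 and 1 UMIs, and the ratio of the summed counts was 15.9 (counting interval 5.42 to 77.5). Blood endothelium had 10.1 and 6.55 CPM in the oviduct and 0.254 and 1.31 CPM in the uterus. Myeloid cells had 7.33 and 6.15 CPM in the oviduct, from 5 and 3 UMIs, and 0 UMIs in both uterine sums, where 3 counts would be 7.60 and 9.89 CPM per library.

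Free RNA in the droplets bears on these low classes. Droplets with at most 100 UMIs held Nr2f1 at 67.4 and 56.4 CPM in the oviduct libraries and at 3.28 and 4.94 CPM in the uterine ones. The amount of Nr2f1 that free RNA could supply was estimated from marker genes of other classes. It came to 8.78 and 3.13 CPM in oviduct endothelium, 4.02 and 2.11 CPM in oviduct myeloid cells and 14.2 and 10.1 CPM in oviduct mesothelium. These amounts are close to the whole endothelial level of oviduct 1 and a large part of the others, so the values for endothelium and myeloid cells are not read as expression. In oviduct mesenchyme it was at most 10.0 CPM, in smooth muscle at most 8.31, in epithelium at most 6.33 and in pericytes at most 1.93, all far below the measured levels.

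In all, both oviduct libraries lay above both uterine libraries for Nr2f1 in the 6 classes with UMIs in both organs, and the myeloid sums held too few for an order. Blood endothelium is among the 6, although its values are not read as expression. Over all genes tested, the same order held for 40.2% in mesenchyme, 36.5% in smooth muscle, 25.1% in epithelium, 26% in pericytes, 25.5% in mesothelium, 18.2% in blood endothelium and 20.7% in myeloid cells. Nr2f1 was chosen for this order.

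**Figure D1:**
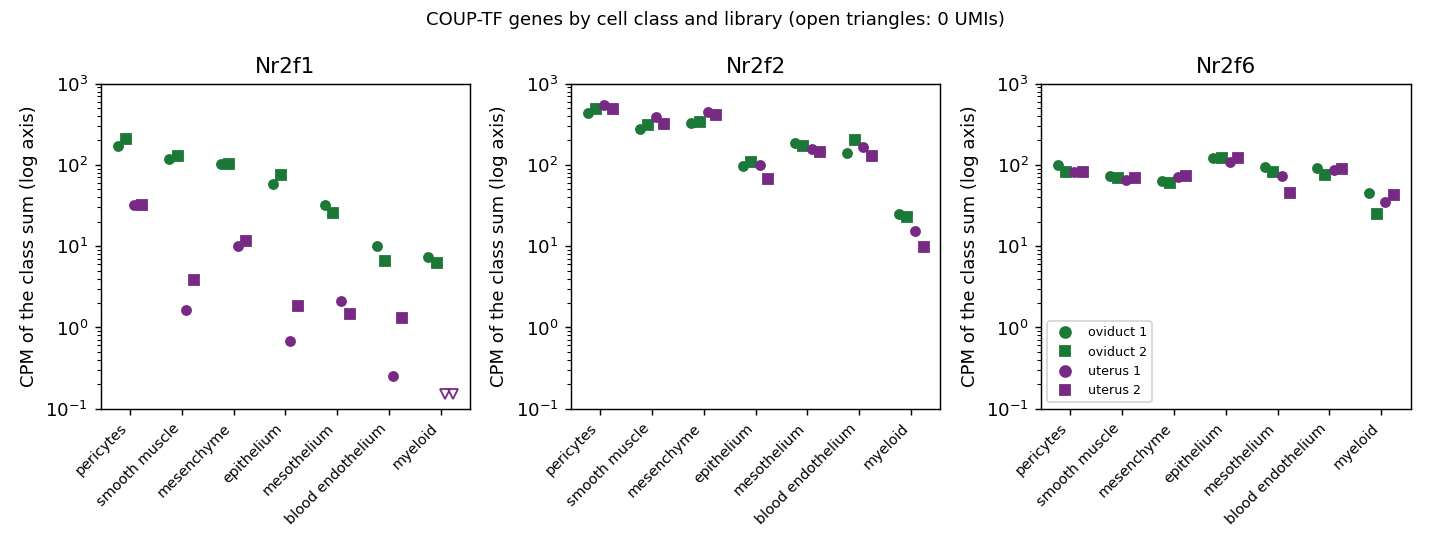
Levels of Nr2f1, Nr2f2 and Nr2f6 in CPM of the class sum (y axis, log scale) by cell class (x axis), 1 point per library, with green for oviduct, purple for uterus, circles for replicate 1 and squares for replicate 2. Nr2f1 separates by organ in the 6 classes with UMIs in both organs, among them blood endothelium, whose values are not read as expression. Open triangles mark 0 UMIs in uterine myeloid cells. Nr2f2 and Nr2f6 spread less, at most from 9.89 to 24.9 CPM (Nr2f2 in myeloid cells, from 3 and 17 UMIs).

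Nr2f2 was present in both organs and moved by far smaller amounts. Its mesenchymal level was 325 and 339 CPM in the oviduct and 453 and 411 CPM in the uterus, with means of 332 ± 10.0 and 432 ± 29.6 CPM (SD, n = 2), 1.30-fold apart. Uterine smooth muscle held 386 and 319 CPM and oviduct smooth muscle 274 and 314 CPM, 1.20-fold apart in the means. In pericytes the uterine values of 552 and 492 CPM lay just above the oviduct values of 434 and 489 CPM, with a ratio of means of 1.13. In smooth muscle and pericytes the nearest libraries of the organs were closer to each other than the replicates of either organ.

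The remaining classes showed no uterine excess of Nr2f2. Mesothelium held 187 and 169 CPM in the oviduct against 158 and 145 CPM in the uterus. Its log2 ratio of oviduct to uterus was 0.24, and −0.17 with clusters in place of the gate. In blood endothelium the values overlapped, with 142 and 201 CPM in the oviduct and 166 and 129 CPM in the uterus. Epithelium overlapped too, with 96.6 and 109 CPM in the oviduct and 99.1 and 66.8 CPM in the uterus. Myeloid cells were lowest at 24.9, 22.5, 15.2 and 9.89 CPM in oviduct 1, oviduct 2, uterus 1 and uterus 2. These myeloid values rest on 17, 11, 6 and 3 UMIs, and free RNA could supply 14.8, 7.08, 11.9 and 6.18 CPM of them. The ratio of the summed myeloid counts was 1.86 (counting interval 0.851 to 4.47), so the organs are not told apart there. Both uterine libraries were thus higher in 3 of 7 classes, where the same order held for 33.1% of all genes in mesenchyme, 24.6% in smooth muscle and 19.6% in pericytes. Both oviduct libraries were higher in mesothelium and myeloid cells, where 25.5% and 20.7% of all genes had that order, and 2 classes overlapped. The myeloid order rests on the few UMIs given above.

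Nr2f6 was nearly even across both organs. Epithelium held 119.95 and 121 CPM in the oviduct and 109 and 120.2 CPM in the uterus, and mesenchyme 63.5 and 59.1 against 70.8 and 72.2 CPM. Pericytes ranged from 81.0 to 100.2 CPM over the 4 libraries, blood endothelium from 76.1 to 91.2 and smooth muscle from 64.6 to 72.6. Mesothelium was the class with the widest organ gap, 94.97 and 81.1 CPM in the oviduct against 72.5 and 45.7 CPM in the uterus. The uterine mesothelial values come from 38 and 29 cells. The organs overlapped in 5 of 7 classes, the oviduct was higher in 1 (mesothelium, an order held by 25.5% of all genes) and the uterus in 1 (mesenchyme, 33.1%).

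The order of the classes differed between the genes. For Nr2f1 in the oviduct the means ran from pericytes through smooth muscle, mesenchyme, epithelium and mesothelium to blood endothelium and myeloid cells, and only the last pair overlapped between libraries. In the uterus pericytes came first and mesenchyme second, and smooth muscle, mesothelium, epithelium and endothelium followed with overlapping values. For Nr2f2 both organs had the same order, with pericytes first, then mesenchyme, smooth muscle, mesothelium, blood endothelium, epithelium and myeloid cells, and mesothelium and endothelium overlapped in both. For Nr2f6, epithelium came first and myeloid cells last in either organ. The classes between them spanned 61.3 to 90.7 CPM in the oviduct and 59.1 to 87.6 CPM in the uterus.

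These class differences were tested against mesenchyme, the largest class, in a fit over all genes with a term for each library (edgeR's quasi-likelihood test, Benjamini-Hochberg adjusted over 13855 genes). Epithelium had less Nr2f1 (log2 fold change −0.99 ± 0.35 SE, adjusted p = 0.0170) and less Nr2f2 (−2.09 ± 0.16, adjusted p = 8.52e-11) but more Nr2f6 (0.77 ± 0.13, adjusted p = 2.47e-05). Each direction was seen in 4 of 4 libraries. The whole background is large here, since 59% of all genes were called between epithelium and mesenchyme. Without uterus replicate 2 the Nr2f1 difference was −0.80 with an adjusted p of 0.0647.

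Pericytes exceeded mesenchyme in Nr2f1 by 1.04 ± 0.33 on the log2 scale (edgeR, adjusted p = 0.0170, 4 of 4 libraries), in a contrast where 32.5% of all genes were called. Without uterus replicate 2 this value was 0.92 with an adjusted p of 0.0594. The pericyte differences of Nr2f2 (0.27 ± 0.15, adjusted p = 0.186) and Nr2f6 (0.28 ± 0.14, adjusted p = 0.134) did not pass.

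Smooth muscle and mesenchyme did not differ by this test in any member, with adjusted p of 0.653 for Nr2f1, 0.495 for Nr2f2 and 0.705 for Nr2f6, and 10.9% of all genes were called. Mesothelium had less Nr2f1 (−2.16 ± 0.39, edgeR adjusted p = 8.98e-05) and less Nr2f2 (−1.33 ± 0.16, adjusted p = 3.00e-07), and its Nr2f6 value of 0.08 did not pass (adjusted p = 0.686). Of all genes, 42.3% were called there.

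Blood endothelium was far below mesenchyme in Nr2f1 (−3.85 ± 0.43, edgeR adjusted p = 3.88e-08) and lower in Nr2f2 (−1.38 ± 0.16, adjusted p = 4.35e-08), against 59.4% of all genes called. Its Nr2f6 difference of 0.25 ± 0.13 did not pass (adjusted p = 0.103). Myeloid cells were lower in Nr2f2 (−4.26 ± 0.24, edgeR adjusted p = 1.68e-13) and in Nr2f6 (−0.81 ± 0.19, adjusted p = 0.000774), against 55.3% called. Nr2f1 was also called lower in myeloid cells (−4.16 ± 0.73, edgeR adjusted p = 3.32e-05). That value rests on 5 and 3 UMIs in the oviduct and 0 in both uterine sums, so it sets no bound in the uterus.

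The same contrasts were also fitted within each organ. For Nr2f1, uterine smooth muscle was below uterine mesenchyme by −1.82 ± 0.28 log2 (edgeR adjusted p = 2.66e-06, 15.7% of all genes called), while oviduct smooth muscle stood at 0.29 ± 0.11 above oviduct mesenchyme without passing (adjusted p = 0.0694, 24.2% called). Epithelium fell by 0.58 ± 0.12 on the log2 scale in the oviduct (adjusted p = 0.000175, 67.8% called) and by 3.09 ± 0.48 in the uterus (adjusted p = 8.69e-07, 54.4% called). The pericyte excess was 0.77 ± 0.13 in the oviduct (adjusted p = 6.17e-05, 35.2% called) and 1.53 ± 0.20 in the uterus (adjusted p = 1.11e-07, 29.3% called). In blood endothelium Nr2f1 was at −3.67 ± 0.18 in the oviduct and −3.74 ± 0.37 in the uterus (edgeR adjusted p = 5.67e-14 and 1.83e-11, 60.6% and 60.9% called). In mesothelium it was at −1.92 ± 0.13 and −2.65 ± 0.64 (edgeR adjusted p = 1.55e-11 and 0.00111, 52.5% and 33.6% called). The uterine sums behind these fits held 1 and 4 Nr2f1 UMIs in epithelium, 1 and 7 in blood endothelium and 2 and 1 in mesothelium. The endothelial levels are not read as expression. The differences between the organs' contrasts were not tested, because they restate the organ difference for which Nr2f1 was chosen.

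Nr2f2 was lower in epithelium by −1.66 ± 0.10 in the oviduct and −2.53 ± 0.11 in the uterus (edgeR adjusted p = 3.69e-12 and 2.25e-21). It was lower in blood endothelium by −1.06 ± 0.10 in the oviduct and −1.66 ± 0.10 in the uterus (edgeR adjusted p = 9.89e-09 and 2.62e-18). In mesothelium Nr2f2 was at −0.99 ± 0.10 in the oviduct and −1.66 ± 0.12 in the uterus (edgeR adjusted p = 2.07e-08 and 8.88e-15). Nr2f6 was higher in epithelium by 1.02 ± 0.09 in the oviduct and 0.57 ± 0.12 in the uterus (edgeR adjusted p = 2.35e-09 and 6.72e-05). In oviduct mesothelium Nr2f6 was 0.42 ± 0.09 above mesenchyme (adjusted p = 0.000577), and in uterine mesothelium it was at −0.36 ± 0.17 without passing (adjusted p = 0.0952).

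**Figure D2:**
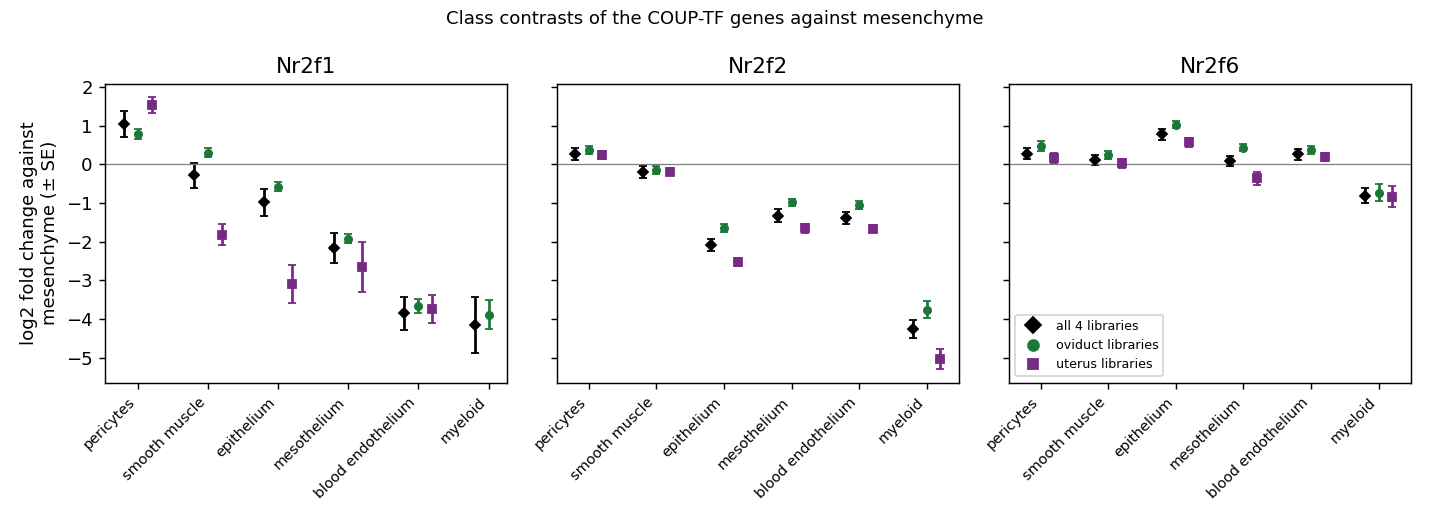
Log2 fold change of each class against mesenchyme (y axis, ± SE of the edgeR fit) for the 3 genes, over all 4 libraries (black diamonds) and within the oviduct (green circles) and uterine (purple squares) libraries. For Nr2f1 the organs part most in smooth muscle (0.29 and −1.82) and epithelium (−0.58 and −3.09), and uterine myeloid cells are left out because they held 0 UMIs.

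Shares of cells with at least 1 UMI depend on depth, so each cell was thinned to 2000 UMIs. After thinning, Nr2f1 was seen in 17.0% and 17.0% of oviduct mesenchymal cells and in 2.19% and 2.44% of uterine ones. The unthinned shares were 53.7%, 48.1%, 8.02% and 9.65%, with median depths of 12533, 10951, 13773.5 and 14830 UMIs in oviduct 1, oviduct 2, uterus 1 and uterus 2. As a class near background, oviduct blood endothelium gave 2.72% and 0.775% after thinning, at median depths of 17854 and 13655 UMIs before it, well below oviduct mesenchyme. In the uterine libraries themselves, thinned endothelium held Nr2f1 in 0 of 152 and 0 of 163 cells, which allows a share of cells with a UMI of up to 2.40% and 2.24% (exact 95% upper limits). The uterine mesenchymal shares lay close to these limits, and the fit on all UMIs placed uterine endothelium far below uterine mesenchyme. Nr2f2 was seen in 45.9% and 47.9% of thinned oviduct mesenchymal cells and 58.3% and 55.0% of uterine ones.

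In mesenchyme, cells with Nr2f1 had Nr2f2 about as often as cells without it in 3 of 4 libraries. In oviduct mesenchyme, 47.3% and 48.8% of the thinned cells with Nr2f1 also had Nr2f2, against 45.6% and 47.7% of the cells without Nr2f1. The corresponding shares in uterine mesenchyme were 59.1% and 70.2% against 58.2% and 54.6%, from 44 and 47 cells with Nr2f1. In oviduct pericytes they were 72.0% and 62.5% against 47.1% and 53.9%, from 25 and 24 cells with Nr2f1. Oviduct smooth muscle showed no such excess, with 40.5% and 41.2% against 40.1% and 45.7%, from 79 and 68 cells with Nr2f1. Nor did epithelium of oviduct 1, with 19.0% against 22.7%, from 21 cells with Nr2f1.

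The organ difference of Nr2f1 was not the same in every mesenchymal population. Cells were clustered without the 3 members, and 5 clusters held at least 20 mesenchymal cells of each library. They covered 17.3% and 17.6% of the oviduct mesenchyme and 36.7% and 42.0% of the uterine mesenchyme. In 2 of them the uterus held more Nr2f1 than the oviduct, although in the cluster led by Pdlim3 the oviduct level was no higher than free RNA could give.

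The cluster led by Nefm, Nefl, Cxcl13, Nts and Shisa3 (neurofilament and signalling genes) had 397 and 278 oviduct cells and 34 and 24 uterine cells. Its Nr2f1 level was 50.1 and 53.8 CPM in the oviduct and 93.2 and 85.5 CPM in the uterus, from 250, 172, 43 and 27 UMIs. The counting interval of uterus 2 (56.3 to 124 CPM) overlapped those of the oviduct. The uterine mean was 1.72-fold the oviduct mean, and 19.9% of all genes with at least 10 UMIs in that cluster had both uterine libraries on top. Hoxa11, which marks the uterine part of the duct, was at 4.41 and 5.32 CPM in the oviduct cells and 52.0 and 28.5 CPM in the uterine cells of the cluster, against 150.5 and 135 CPM in all uterine mesenchyme. Wnt16, high in another group of oviduct mesenchymal cells, was at 8.61 and 8.13 CPM in its oviduct cells and had 0 UMIs in its uterine cells.

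The cluster led by Pdlim3, Lum, Lrrn2, Crtac1 and Tcf21 (matrix genes and a mesenchymal transcription factor) had 99 and 99 oviduct cells and 363 and 401 uterine cells. Nr2f1 was low there in both organs, at 5.54 and 5.04 CPM in the oviduct and 11.3 and 8.41 CPM in the uterus. These values rest on 8, 7, 55 and 49 UMIs, and their counting intervals overlap. The oviduct values did not exceed the 10.0 and 5.82 CPM that free RNA could supply in oviduct mesenchyme, so they are not read as expression. The ratio of the uterine to the oviduct mean was 1.86, and 21.9% of all genes had both uterine libraries on top. Nr2f2 in the same cells was 208 and 239 CPM in the oviduct and 395 and 351 CPM in the uterus, 1.67-fold higher in the uterine mean. These oviduct cells were the mesenchymal cells of the oviduct with the least Nr2f1 among clusters of at least 20 cells. They held Hoxa11 at 18.0 and 39.6 CPM and Wnt16 at 0.692 and 2.16 CPM, against 2.81 and 3.69 CPM of Hoxa11 and 254 and 235 CPM of Wnt16 in all oviduct mesenchyme. Hoxa10 was at 101.7 and 101.6 CPM in them, against 36.7 and 30.8 CPM.

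In the other 3 shared clusters the oviduct values were higher. The cluster led by Cenpa and Cdc20, genes of mitosis, held 107 and 108 CPM in the oviduct and 3.24 and 10.5 CPM in the uterus, where 27.4% of all genes had both oviduct libraries on top. The cluster led by histone genes (Hist1h2ae, Hist1h2ap), which are made during DNA replication, held 57.2 and 45.3 against 10.2 and 7.71 CPM, with 26.5% of all genes in that order. A cluster of shallow cells led by Dppa3 and Sycp3, which are known from germ cells, was given no cell type. Its cells within the mesenchyme gate held 61.7 and 92.5 against 10.7 and 24.2 CPM, from 4, 9, 1 and 2 UMIs, with 19.5% of all genes in that order. Its counting intervals overlap, so the organs are not told apart there.

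**Figure D3:**
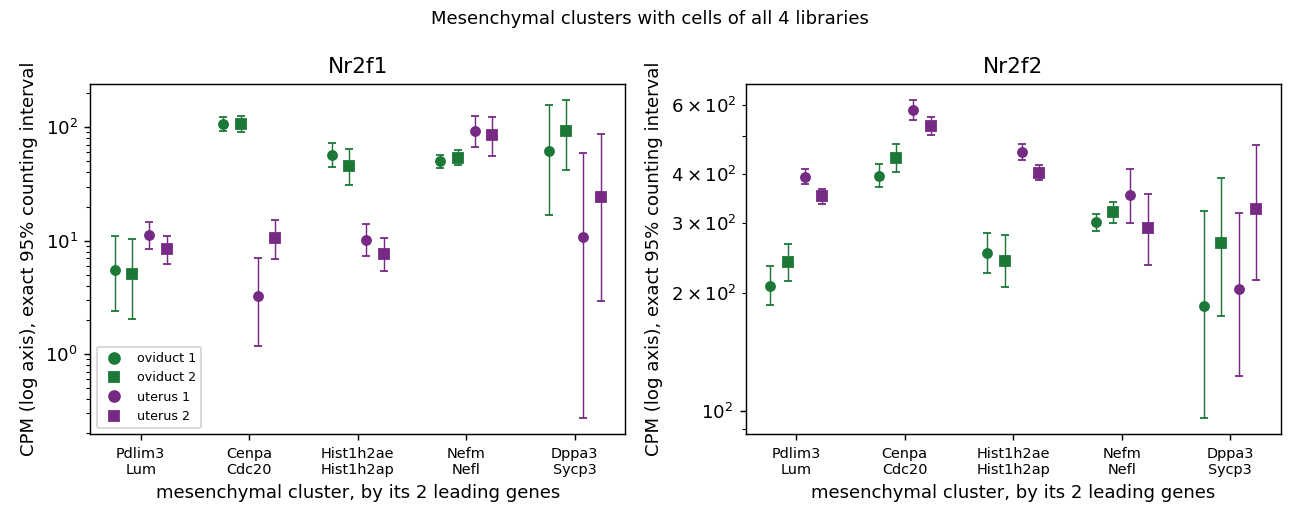
Nr2f1 and Nr2f2 in CPM (y axes, log scale, exact 95% counting intervals) in the 5 mesenchymal clusters with at least 20 cells of each library, named by their 2 leading genes (x axis), with green for oviduct and purple for uterus. Nr2f1 is higher in the uterus in the Nefm cluster (93.2 and 85.5 against 50.1 and 53.8 CPM) and higher in the oviduct in the Cenpa and Hist1h2ae clusters, and the intervals of the organs overlap widely in the Pdlim3 and Dppa3 clusters and narrowly for uterus 2 in the Nefm cluster.

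Uterine Nr2f1 was enriched in part of the cells. Besides the Nefm cluster, a cluster almost wholly of uterine cells, led by Pcdh10, Gabrg3 and Cxxc4 (132 and 188 mesenchymal cells), held 50.8 and 53.8 CPM. Together these clusters made up 8.02% and 10.7% of the uterine mesenchymal cells and 38.4% and 41.0% of their Nr2f1 UMIs. Without them the uterine mesenchyme was at 6.58 and 7.42 CPM. The largest uterine cluster by mesenchyme-gated cells (715 and 589), led by Cck and Rxfp1 (relaxin receptor), was at 3.53 and 5.03 CPM. The one led by Pcp4, with 328 and 263 such cells of 929 and 861 in uterus 1 and 2, was at 1.99 and 1.34 CPM.

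In the oviduct, the mesenchyme-gated cells of the clusters led by Pthlh, by Wnt16, by Tnnt2 and by Cdkn2c ranged from 121 to 139 CPM over both libraries. The Tnnt2 cluster was also led by Actg2, Myh11 and Cnn1, which are markers of the smooth muscle gate. It held 450 and 289 of the mesenchyme-gated cells in oviduct 1 and 2 (10.3% and 8.60%). The cluster led by Angptl7, Sele and Zim1 was lower, at 78.1 and 64.6 CPM of Nr2f1, and low in Nr2f2 too, at 183 and 163 CPM against 325 and 339 CPM in all oviduct mesenchyme. The clusters were made from these cells, so their differences are descriptions.

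Since Nr2f2 is known to hold back arterial identity, blood endothelial cells were split by arterial genes (Gja4, Gja5, Efnb2, Sox17, Dll4, Bmx, Hey1, Sema3g, Gkn3, Fbln5). With at least 2 of the 10 detected, 121, 103, 122 and 133 of 158, 143, 180 and 190 cells counted as arterial in oviduct 1, oviduct 2, uterus 1 and uterus 2. That gate followed depth, with median UMIs per cell of 18802 to 24330 in the arterial cells and 2214.5 to 4582.5 in the others. Nr2f2 was at 142, 201, 169 and 131 CPM in the arterial cells and at 132, 199, 138 and 102 CPM in the others. The fitted difference was 0.03 ± 0.13 log2 (edgeR, adjusted p = 0.936), against 6.27% of all genes called.

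A stricter gate of at least 5 arterial genes, chosen after these values had been seen, left 40, 37, 30 and 26 arterial cells. Nr2f2 was then at 123, 175, 123 and 66.6 CPM in the arterial cells and at 158, 218, 183 and 151 CPM in the others. It was lower in the arterial cells of 4 of 4 libraries, by 0.64 ± 0.11 on the log2 scale (−0.64, edgeR adjusted p = 0.000375, against 12% of all genes called and 5.07% called lower). Leaving out each library gave −0.48 to −0.73 with adjusted p of 0.000627 to 0.00240. The arterial cells were still deeper (23960.5 to 39412.5 against 11401 to 13699.5 median UMIs), and the part of depth in the difference was not tested. Nr2f6 did not differ by either gate (−0.23 ± 0.17, adjusted p = 0.523, and 0.02 ± 0.09, adjusted p = 0.944), and Nr2f1 had too few UMIs to be tested.

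**Figure D4:**
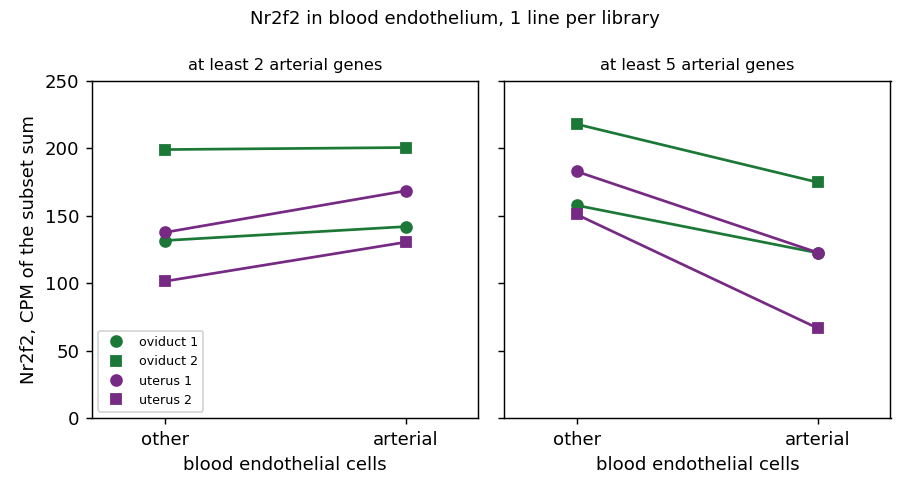
Nr2f2 in CPM of the subset sum (y axis) in other and arterial blood endothelial cells (x axis), 1 line per library, for gates of at least 2 (left) and at least 5 (right) of 10 arterial genes. With the wider gate 2 lines are flat and the uterine lines rise (from 138 to 169 and from 102 to 131 CPM), and with the stricter gate all 4 fall, from 151 to 218 CPM down to 66.6 to 175 CPM.

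Of the genes placed with COUP-TFs by earlier work, 16 outside the gate's own genes were tested, and 5 were higher and 1 lower in the arterial cells, against 6.9% of all genes higher and 5.07% lower. Their median log2 difference was 0.23, against −0.01 over all genes. Nrp2, a receptor of veins and lymphatics, was lower in the arterial cells (−1.03 ± 0.16, edgeR adjusted p = 0.000147). Notch4 (1.17 ± 0.13, adjusted p = 4.83e-06), Notch1 (0.85 ± 0.09, adjusted p = 2.70e-06) and Nrp1, a receptor for semaphorins and VEGF known from arteries (0.65 ± 0.08, adjusted p = 1.63e-05), were higher. Cyp26b1, which degrades retinoic acid (1.26 ± 0.36, adjusted p = 0.0289), and Sox18 (0.27 ± 0.07, adjusted p = 0.0199) were higher too. The venous receptor Ephb4 was at −0.09 ± 0.11 (adjusted p = 0.696). Of the other genes listed as venous, Vwf, which large arteries also make, was higher in the arterial cells (3.01 ± 0.20, edgeR adjusted p = 4.61e-09, and 2.04 ± 0.40, adjusted p = 0.000323, with the wider gate). Vcam1 was at 1.32 ± 0.44 (adjusted p = 0.0617). The venous list thus did not move 1 way. With the gate of at least 2 genes, 3 of 13 were called (median 0.42, against 0.01 over all genes, of which 3.35% were called higher and 2.91% lower). All 3 were higher in arterial cells, namely Notch1 (1.04 ± 0.17, adjusted p = 1.30e-05), Nrp1 (0.51 ± 0.14, adjusted p = 0.0107) and the VEGF receptor Kdr (0.42 ± 0.09, adjusted p = 0.00160). With at least 5 arterial genes Kdr was not called (0.07 ± 0.05, edgeR adjusted p = 0.443). Kdr is also a marker of the blood endothelium class.

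No member was called between cycling and other mesenchymal cells. Cells with at least 2 of 12 cell cycle genes (1414, 1016, 843 and 934 cells) held Nr2f1 at 109.5, 97.5, 8.82 and 8.60 CPM, and the other cells held 100.2, 105.3, 11.1 and 15.2 CPM. The difference was −0.15 ± 0.09 log2 (edgeR, adjusted p = 0.226), while 39.2% of all genes were called. Without oviduct replicate 1 it was −0.32 with an adjusted p of 0.0119. Nr2f2 was at 331, 347, 464 and 419 CPM in cycling cells and 321, 334, 442 and 402 CPM in the others (0.02 ± 0.02, adjusted p = 0.519), and with at least 4 cycle genes the difference was 0.09 with an adjusted p of 0.0204. Nr2f6 was at −0.01 ± 0.04 (edgeR adjusted p = 0.898). Of 28 genes placed with COUP-TFs that were tested, 1 was higher and 5 were lower in cycling cells, against 20.8% and 18.4% of all genes, with a median log2 difference of −0.02 against −0.01. Wt1, a transcription factor of the urogenital mesenchyme, was higher in cycling cells (0.17 ± 0.05, edgeR adjusted p = 0.0270). The growth factors Fgf10 (−0.49 ± 0.08, adjusted p = 0.000572), Fgf7 (−0.29 ± 0.09, adjusted p = 0.0309) and Wnt4 (−0.32 ± 0.04, adjusted p = 2.52e-05) were lower, as were Cyp26b1 (−0.29 ± 0.11, adjusted p = 0.0482) and the oestrogen receptor Esr1 (−0.15 ± 0.03, adjusted p = 0.000951).

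The next comparison places the COUP-TFs among their family and partners between the organs. The lists were chosen with earlier results of these data known, so the shares called per list are descriptions. Of 46 other nuclear receptors, 31 passed the filter in mesenchyme and 20 were called, 14 for the oviduct and 6 for the uterus. Of all genes, 45.1% were called, with 23.8% on the oviduct side and 21.3% on the uterine side. Their median log2 difference was 0.19, against −0.00 over all genes. In epithelium 13 of 27 were called (12 for the oviduct and 1 for the uterus), against 23.5% of all genes (14.3% and 9.2%), with a median of 0.75 against 0.00.

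Nr4a2, an orphan receptor induced early after stimulation, was at 155 and 220 CPM in oviduct mesenchyme and 19.4 and 23.8 CPM in uterine mesenchyme (edgeR log2 difference 3.07 ± 0.16, adjusted p = 6.40e-08). Its relative Nr4a3 was at 45.2 and 75.9 against 5.62 and 9.41 CPM (2.96 ± 0.25, adjusted p = 3.63e-06). Nr4a1, the other member of that group, was at 423 and 577 against 62.7 and 118 CPM (2.42 ± 0.24, edgeR adjusted p = 1.34e-05), and was named after its values were seen. All 3 Nr4a genes are known as early response genes that cell dissociation can also induce, and the part of such a response in the organ values was not tested. The progesterone receptor Pgr went the other way, at 9.15 and 12.9 against 28.5 and 29.8 CPM (−1.46 ± 0.13, adjusted p = 4.36e-06). Rorb, a retinoid-related orphan receptor, was at 6.71 and 6.67 against 41.8 and 40.4 CPM (−2.66 ± 0.08, adjusted p = 9.62e-10), and Nr6a1 was lower in the oviduct as well (−1.23 ± 0.27, adjusted p = 0.00396).

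Oviduct epithelium held more Esr1 (61.0 and 86.6 against 11.6 and 9.67 CPM, 2.94 ± 0.26, edgeR adjusted p = 1.17e-06) and more of the thyroid hormone receptor Thrb (10.8 and 17.4 against 0.684 and 2.76 CPM, 3.00 ± 0.50, adjusted p = 0.000396). Nr0b1, which lacks a DNA-binding domain of the usual kind, was at 8.82 and 5.40 CPM in oviduct epithelium and had 0 UMIs in the uterine sums (adjusted p = 0.000352). Pgr was higher in uterine epithelium, with 35.6 and 41.1 CPM in the oviduct against 117 and 126 CPM in the uterus (−1.53 ± 0.18, adjusted p = 1.43e-05).

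Of 21 cofactors of COUP-TFs, all passed the filter in mesenchyme and 13 were called (12 for the oviduct and 1 for the uterus), with a median log2 difference of 0.23. Of all genes 45.1% were called there. In epithelium 4 of 18 were called (3 and 1), or 22.2% against 23.5% of all genes, with a median of 0.06. The epithelial count was thus no higher than the background. Gata6, a zinc finger factor that can pair with nuclear receptors, was at 105 and 103 CPM in oviduct mesenchyme against 28.1 and 27.6 CPM (1.86 ± 0.08, edgeR adjusted p = 1.21e-08). In epithelium it was at 61.0 and 62.9 against 0.684 and 1.84 CPM (5.60 ± 0.35, adjusted p = 3.95e-08). Prox1, which binds Nr2f2 in lymphatic endothelium, was low but higher in oviduct mesenchyme, at 3.58 and 5.93 against 0.272 and 0.395 CPM (3.76 ± 0.34, adjusted p = 7.08e-06). Gata4 was also called there, at 1.12 and 1.05 CPM in the oviduct. Bcl11a, a zinc finger protein that binds COUP-TFs, was higher in uterine mesenchyme (−1.36 ± 0.12, adjusted p = 5.89e-06). Its relative Bcl11b was at 12.7 and 15.6 CPM in oviduct epithelium with 0 and 1 UMIs in the uterine sums (adjusted p = 1.25e-05). The corepressor Nrip1 was higher in oviduct epithelium (1.19 ± 0.25, adjusted p = 0.00246) and the deacetylase Hdac1 in uterine epithelium (−0.59 ± 0.18, adjusted p = 0.0306, and 0.0861 with the replicate number as a block, so the call is lost there).

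Of 33 genes placed with COUP-TFs, 19 of 30 were called in mesenchyme (13 for the oviduct and 6 for the uterus, median log2 difference 0.37) and 12 of 18 in epithelium (7 and 5, median 0.71). Over all genes, 45.1% and 23.5% were called, with medians of −0.00 and 0.00. Fgf10, a growth factor of mesenchyme that acts on epithelium, was at 23.5 and 26.1 CPM in the oviduct against 1.19 and 0.889 CPM (4.53 ± 0.14, edgeR adjusted p = 1.52e-09). Fgf7, with a like role, was at 24.3 and 24.2 against 2.28 and 2.04 CPM (3.45 ± 0.11, adjusted p = 1.76e-09). Hand2, a stromal factor that restrains Fgf signalling in the adult uterus, was higher in uterine mesenchyme, at 231 and 221 CPM against 101 and 95.2 CPM in the oviduct (−1.24 ± 0.07, adjusted p = 2.04e-07). Hey2, a Notch target, was higher there too (−1.70 ± 0.25, adjusted p = 0.000249).

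In epithelium of the oviduct, Wt1 was at 156 and 165 against 16.4 and 9.21 CPM in the uterus (3.84 ± 0.24, edgeR adjusted p = 4.16e-08). Nrp1 was at 54.0 and 57.6 against 2.05 and 0.921 CPM (5.44 ± 0.35, adjusted p = 5.30e-08). Sox18 was called on few UMIs (adjusted p = 0.00857). Higher in uterine epithelium were Nrp2 (−2.16 ± 0.36, adjusted p = 0.000465) and Efnb2 (−1.18 ± 0.18, adjusted p = 0.000189), the ephrin ligand of arteries. In mesenchyme Nrp2 went the other way, at 47.4 and 64.1 CPM in the oviduct against 11.2 and 11.1 CPM (2.28 ± 0.13, edgeR adjusted p = 1.32e-07). Efnb2 was higher in the uterus there too (−0.41 ± 0.07, adjusted p = 0.00115). The lists mix activators, repressors, ligands and receptors, so a count of members called higher is no direction of a pathway.

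The Nr2f1 gene overlaps A830082K12Rik, an antisense gene on the plus strand at chr13:78198017-78279391 (GRCm38), over 1741 bases. Whether the counting used strand is not given in the sources used here, so reads of the shared bases may not be told apart. A830082K12Rik was at 18.0 and 17.6 CPM in oviduct mesenchyme and 1.87 and 2.37 CPM in uterine mesenchyme. In smooth muscle it was at 17.0 and 17.0 against 1.17 and 0.771 CPM, and in epithelium at 7.42 and 11.7 against 0 and 0.460 CPM. It thus followed the organ order of Nr2f1 in these classes. In myeloid cells it had 1 and 0 UMIs in either organ, too few for an order.

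In pericytes the order was the same with a smaller gap. A830082K12Rik was at 27.9 and 34.8 CPM in oviduct pericytes and 21.1 and 16.2 CPM in uterine pericytes, where Nr2f1 was at 169.9 and 211 against 32.0 and 32.5 CPM. Uterine pericytes held more A830082K12Rik than oviduct mesenchyme in 1 of 2 libraries, although uterine pericytes held less Nr2f1 than oviduct mesenchyme in both. Nr2f2 overlaps B130024G19Rik over 1826 bases, which was not analysed here. Nr2f6 overlaps Ocel1 over 5239 bases on the other strand, and Ocel1 was highest in myeloid cells (65.6 to 115 CPM), where Nr2f6 was lowest.

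**Figure D5:**
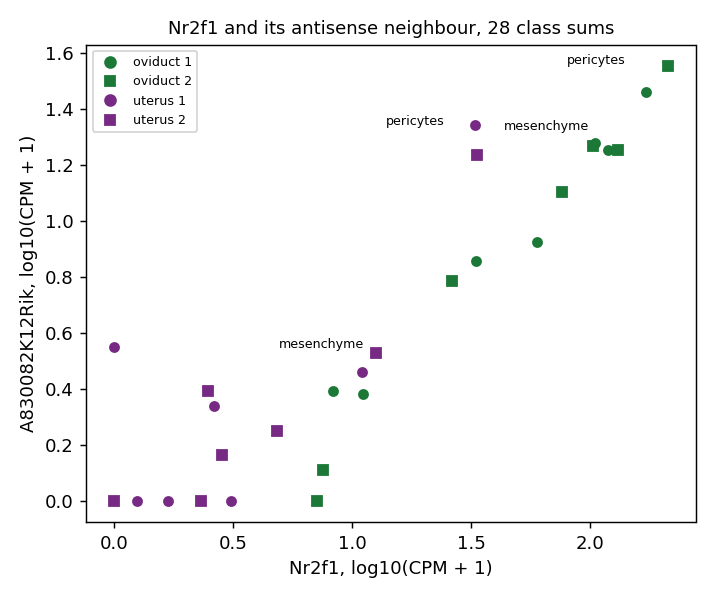
A830082K12Rik (y axis) against Nr2f1 (x axis), both as log10(CPM + 1), for the 28 sums of 7 classes and 4 libraries, with green for oviduct and purple for uterus. Most sums lie along 1 rising band, and the 2 uterine pericyte sums stand above it at 21.1 and 16.2 CPM of A830082K12Rik.

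Finally, the genes whose pattern was most like each member were taken over the same 28 sums (Pearson's r of log2(CPM + 1), among the 6260 genes whose mean over the sums reached 20 CPM). The sums share libraries and depth, and r is a description. For Nr2f1 they were Socs3, a brake on cytokine signalling (r = 0.85), the clock repressor Cry2 (0.80), Nab2 (0.79), the kinase Sik1 (0.78) and the antiproliferative Btg2 (0.76). Socs3, Nab2, Sik1 and Btg2 are known as genes induced early after stimulation, as are the Nr4a genes that were higher in oviduct mesenchyme, and the part of such a response in the pattern of Nr2f1 was not tested. For Nr2f2 they were the junction gene Jam3 (0.95), Klhdc2 (0.94), the noncoding RNA Airn (0.94), Kdelc1 (0.93) and Rbm4b (0.93). For Nr2f6 they were the peroxidase Prdx2 (0.89), Zfp428 (0.88), the E protein Tcf3 (0.88), Thoc3 (0.87) and the planar polarity gene Vangl1 (0.86). Among themselves the members were less alike, with r of 0.55 between Nr2f1 and Nr2f2, 0.30 between Nr2f1 and Nr2f6 and 0.48 between Nr2f2 and Nr2f6.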

How the data were processed

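The deposited files hold UMI counts per gene and barcode, as filtered and raw matrices for each of 4 libraries, and the authors made them with Cell Ranger (6.0.1 for the filtered and 4 for the raw matrices, per the file headers). Per the submitters' processing notes the build was mm10 and Seurat 4.2.3 was used. Strand use, introns and annotation were not given in the sources used here. Of 31053 identifiers, 30934 are in GENCODE M21, which was used for coordinates and transcripts.

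Called barcodes were kept when they had 500 genes or more and no more than 15% mitochondrial UMIs, and those with the highest Scrublet scores (scanpy 1.11.5) were removed at 0.8% per 1000 barcodes. A cell took the class whose markers scored highest, at 0.2 or more and 0.1 ahead of the next (a range of scores, not a type: 164 of 1468 smooth muscle and 434 of 11772 mesenchymal cells lay within 0.02 of a limit). Counts were summed per class and library, which gave 28 sums, and tested with edgeR 4.0.16 in R 4.3.3 (TMM, filterByExpr, quasi-likelihood test, 2-sided, adjusted p under 0.05 called). The fit had terms for library and class, or library and subset. The organ contrast of listed genes used the 4 sums of a class with organ as the term. DESeq2 1.42.0 was an alternative. Depths were 61117726 to 114419939 UMIs per library, and intervals cover counting error only. The test was checked on simulated counts.

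Named genes are the members, the 5 most alike genes per member, the 3 largest called changes per direction, list and class, and called list genes in the subset contrasts (up to 5 per direction), leaving out Gm, Rik, mitochondrial, ribosomal protein and haemoglobin genes from the alike genes. A830082K12Rik, the Hox genes, Wnt16 and the cluster genes were named after their values were seen. A gene that the rule names is not reported here. The members and lists were chosen with earlier results of these data known. Replicate numbers pair the organs because the same neonates gave both. The deviations of the same-numbered libraries correlated at r = 0.21 in mesenchyme and −0.13 in epithelium (2 pairs).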

Additional observations from a re-analysis of the deposited data

Results flagged for a closer look

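In CPM, smooth muscle and mesenchyme stood in opposite order in the organs for 2 of the genes. Nr2f1 was higher in smooth muscle than in mesenchyme by 14.34 and 27.12 CPM in the oviduct libraries, and the same difference was −8.375 and −7.698 CPM in uterus 1 and 2. For Nr2f6 the difference was 9.124 and 10.16 CPM in the oviduct and −6.209 and −2.426 CPM in the uterus. For Nr2f6 the opposite order was not seen in the edgeR fit with TMM scaling, where uterine smooth muscle was at 0.02 ± 0.11 log2 against mesenchyme (adjusted p = 0.938). In CPM, every oviduct library went one way and every uterine library the other. The difference between the organs was not tested. Over all libraries together, smooth muscle cells carried mesenchymal markers, and the part of mixed class membership in these values was not tested.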

How the results depend on the processing

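Of 521 values of 45 results recomputed under alternatives, 468 kept their direction and their side of the threshold, or stayed within 1.5 times for counts. Under each alternative run, Nr2f1 was higher in every oviduct library kept than in every uterine one. This covered the 6 or 7 classes that gave a value, myeloid cells on very few UMIs and blood endothelium at levels not read as expression. Nr2f1 was chosen for this order. Leaving out a library could not break an order that held in every library, so those runs do not test it. Their values are nevertheless among the 468. The cause of the changes below was not tested. No paired fit was made for the members, whose organ values carry no test. The replicate block was fitted for the listed genes, since both organs of a number come from the same neonates. It gave 7455 genes in mesenchyme and 2416 in epithelium, against 6987 and 2855 without it, and among the named genes it ended only the call of Hdac1 in epithelium (−0.59, adjusted p = 0.0861).

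For the organ values, the log2 ratio of Nr2f1 in mesenchyme was 3.76 with clusters in place of the gate and 2.74 with the stricter gate, against 3.26. The clusters named mesenchyme include the one led by Tnnt2, Actg2 and Myh11. They also include the one led by Pcp4, with 32.6% of its cells in the mesenchyme gate. Nr2f2 was higher in both oviduct libraries in 1 of 6 classes with the stricter cell filter and with clusters, in 3 of 7 with TMM or relative log expression scaling, and in 2 to 4 with a library left out. Nr2f6 was so in 2 classes with the stricter filter, with doublets kept, with clusters, with free RNA subtracted and with TMM or relative log expression scaling, and in 1 to 5 with a library left out. It was higher in both uterine libraries in 1 to 3 classes with a library left out. Leaving out a library can only keep or raise such counts. The log2 ratio of oviduct to uterus reversed to −0.17 for Nr2f2 in mesothelium with clusters. With a library left out it ranged from −0.061 to 0.44 for Nr2f2 in blood endothelium, and for Nr2f6 from −0.0064 to 0.30 in pericytes, −0.20 to 0.058 in blood endothelium and −0.67 to 0.21 in myeloid cells.

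In the class contrasts (log2, edgeR), Nr2f1 in smooth muscle was −0.64 to 0.026 with a library left out (above 0 without uterus replicate 1), 0.29 in the oviduct alone and −1.82 in the uterus alone. Nr2f1 ranged from −1.40 to −0.73 in epithelium and from 0.92 to 1.21 in pericytes with a library left out, and without uterus replicate 2 (−0.80 and 0.92) neither was called. Genes called in smooth muscle numbered 628 and 647 without either oviduct library (628 to 1242 over each library left out) and 3569 in the oviduct alone, against 1508. In pericytes, Nr2f2 was called at 0.37 in the oviduct alone. Nr2f6 was called there at 0.31 with DESeq2, 0.46 in the oviduct alone and 0.42 with the stricter gate. In mesothelium, Nr2f6 was −0.0032 without a filter, −0.10 to 0.26 with a library left out (below 0 without either oviduct library), 0.42 in the oviduct alone, −0.36 in the uterus alone and −0.13 with clusters. In blood endothelium it was called at 0.37 in the oviduct alone, 0.32 with the stricter gate and 0.31 with the stricter cell filter.

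For arterial cells, Nr2f2 was −0.014 to 0.086 with a library left out (below 0 without uterus replicate 2) and −0.64 with at least 5 genes, where Nr2f6 was 0.016. Called genes numbered 341 with DESeq2, 284 to 441 with a library left out, 1194 with at least 5 genes and 176 with at least 1, against 596. For cycling cells, Nr2f1 was −0.32 to −0.079 with a library left out (called at −0.32 without oviduct replicate 1), and Nr2f2 was −0.0029 with DESeq2 and with relative log expression and 0.092 with at least 4 genes. Nr2f6 was −0.020 to 0.015 with a library left out and 0.025 with at least 4 genes, and DESeq2 called 3307 genes against 5483. Between the organs in epithelium, DESeq2 called 1672 genes, and 1760 to 2961 were called with a library left out (1760 without oviduct replicate 2), against 2855. Smooth muscle has no value with clusters, since no cluster was named for it. The cluster led by Tnnt2, Actg2 and Myh11 was named mesenchyme, with 59.5% of its cells in the mesenchyme gate. The cluster led by Pcp4 (929 and 861 cells in uterus 1 and 2) was named mesenchyme too. Only 32.6% of its cells lay in the mesenchyme gate, and its uterine cells held Nr2f1 at 1.43 and 1.82 CPM. The mesenchymal values with clusters therefore include the cells of these clusters that lie outside this gate. Mesothelium has no value with the stricter gate and myeloid cells none with the stricter filter, since too few cells were left. Counts of Nr2f1 were lowest in the uterus, where 5 of 7 class sums held at most 27 UMIs over both libraries. Uterine smooth muscle, which held the 27 UMIs, had a median of 14013.5 and 15816 UMIs per cell, against 14168 and 13795 in the oviduct.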
